A study of Ovis aries with 15 samples.

Results

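The epidermal growth factor (EGF) receptor family comprises 4 receptor genes, EGFR, ERBB2, ERBB3 and ERBB4, and here it was examined together with the ligand genes EGF, TGFA, HBEGF, BTC, EREG and NRG1. These 10 genes were found by their symbols in the deposited table, and 9 of them had a row among its 24691 features. No row carries the symbol EGF, and that ligand was not analysed here. The receptors are tyrosine kinases of the cell surface that signal as pairs. EGFR binds EGF, transforming growth factor alpha and amphiregulin, ERBB3 and ERBB4 bind neuregulins, betacellulin and heparin-binding EGF-like growth factor bind both EGFR and ERBB4, ERBB2 has no known ligand and serves as the preferred partner of the others, and ERBB3 has little kinase activity of its own and depends on its partner. The ligands are made as membrane-bound precursors and released by proteases. In the mammary gland this family is known for its part in ductal growth, alveolar development and the maintenance of secretion.

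The tissue was mammary parenchyma taken by needle biopsy (30 to 50 mg) from 2-year-old Romney ewes in their first pregnancy, with no transgene and no drug treatment. Of the 15 libraries, 9 were of late pregnancy (day 135 of gestation, SD 2.4) and 6 of lactation (day 15 post partum, SD 1.27), and every library was made from RNA pooled over several ewes. The series design gives 3 ewes for a pool of late pregnancy and 2 for a pool of lactation, whereas the methods of the study give the larger number for both. The ewes also differ in what their own dams had been fed from day 21 (day 20 in the source names) to day 50 of gestation: ad libitum (HM), maintenance (MM) or sub-maintenance (LM), each followed by maintenance feeding to day 140. Each feed is represented by 3 pools of late pregnancy and 2 pools of lactation. The ewes themselves were all kept under the same conditions at pasture and received the same nutrition. By the methods of the study the ewes were sampled in late pregnancy and again in lactation, so pools of the 2 states may share ewes. Which ewe entered which pool is not stated in the labels. The test between the states treats the pools as independent, and p-values measure the spread between pools.

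Sequencing depth was 7597938 to 19823166 gene reads in the pools of late pregnancy and 10352962 to 25679416 in those of lactation. The 7 most abundant milk protein genes took from 13.7% to 23.4% of the counted reads before birth and from 71.3% to 75.8% after it, so that all other genes shared a much smaller part of each lactation library. HM lactation pool 1 stood apart, with 85.0% of its gene reads on exons against 91.3% to 92.3% in the other pools of lactation. Levels below are counts per 1000000 reads (CPM) on exons, with library sizes scaled by the trimmed mean of M values (TMM), and a gene is called where edgeR's quasi-likelihood test gives an adjusted p under 0.05. Of the 13345 genes tested between the states 68.4% were called, 35.2% as lower in lactation and 33.1% as higher, so that a call by itself is common in these data. The smallest number of reads treated as detection is 3 per library, equal to 0.101 to 0.274 CPM in late pregnancy and 0.261 to 0.659 CPM in lactation.

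Markers of the cell types in the gland were measured in the same libraries. The summed level of the 12 luminal epithelial markers found was 1838 to 2271 CPM in late pregnancy and 2591 to 2819 CPM in lactation, with 3 lower and 4 higher among the 10 tested. Myoepithelial markers ranged from 831 to 923 CPM and from 795 to 1148 CPM, with 2 lower and 4 higher of 9 tested. Fibroblast markers were at 1349 to 2158 CPM in late pregnancy and 652 to 1056 CPM in lactation (5 of 8 tested lower, 0 higher), endothelial markers at 215 to 291 and 152 to 210 CPM (5 of 7 lower, 0 higher), macrophage markers at 160 to 208 and 78.9 to 109 CPM (5 of 7 lower, 0 higher), and T cell markers at 38.7 to 61.4 and 12.7 to 19.3 CPM (6 of 6 lower, 0 higher). Adipocyte markers (9.87 to 32.3 and 11.2 to 25.7 CPM, 0 lower and 1 higher of 4 tested) and B and plasma cell markers (2.78 to 4.45 and 3.52 to 7.99 CPM, 1 lower and 1 higher of 2 tested) were low in both states. Every marker found in the table had reads in at least 1 library. These shifts between cell types run alongside each difference between the states given below and their part in it was not tested, and in RNA from whole tissue fewer cells of a type and less RNA per cell cannot be told apart.

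Of the 9 genes with a row, 7 passed the filter on low counts: the 4 receptors, BTC, HBEGF and NRG1. Of these 7, ERBB2 and ERBB3 were called as lower in lactation (35.2% of all genes tested were called lower), EGFR, ERBB4, BTC and HBEGF were called as higher (33.1% of all genes), and NRG1 was not called. No overlap between late pregnancy and lactation, which 40.2% of all genes tested showed, was seen for ERBB2 and ERBB3, lower in every pool of lactation (20% of all genes tested were lower without overlap), and for BTC, higher in every pool (20.2% of all genes). TGFA was too low for the test and EREG had no read on exons in any library.

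**Figure D1:**
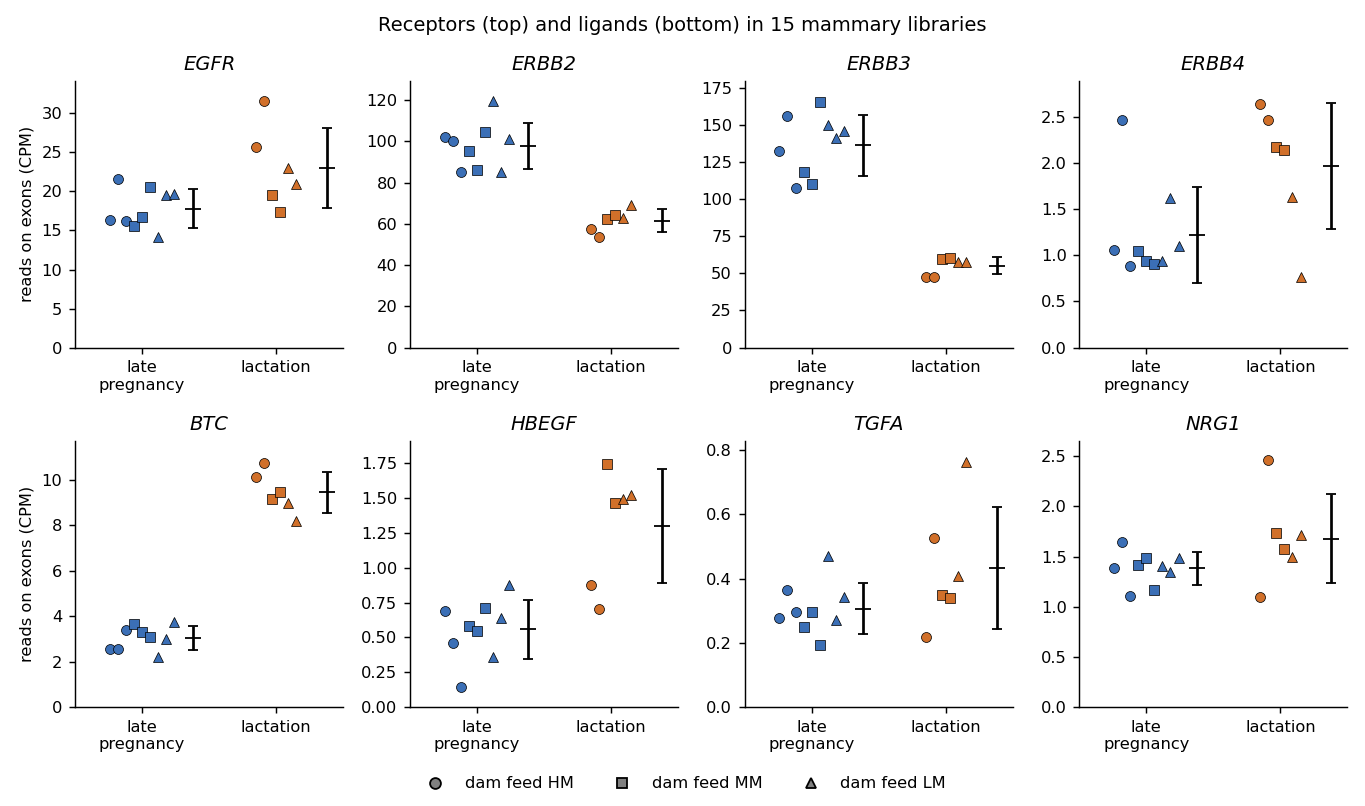
Level of the 4 receptors (top) and 4 ligands (bottom) in each of the 15 libraries, as CPM of reads on exons on linear axes from 0. Blue points are the 9 pools of late pregnancy, orange points the 6 pools of lactation, symbols give the feed of the ewes' dams, and bars give the mean and SD. ERBB2 and ERBB3 are lower and BTC is higher in every pool of lactation, while the states overlap for the other 5 genes.

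ERBB3, the receptor for neuregulins that depends on a partner kinase, lies on chromosome 3 (163150937 to 163172194, Oar_v3.1 per the labels, 28 exons). Its level was 107 CPM in the lowest, 141 CPM in the median and 165 CPM in the highest library of late pregnancy, and 47.6, 57.8 and 60.3 CPM in those of lactation. The highest pool of lactation was thus well below the lowest of late pregnancy. The log2 change from late pregnancy to lactation was -1.30 ± 0.10 (SE), a 2.46-fold lower level, with an adjusted p of 4.8e-10 in edgeR. More than 2-fold lower with a call was seen in 13% of all genes tested.

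ERBB2, the receptor without a ligand of its own, lies on chromosome 11 (39641369 to 39665197, 29 exons). It was measured at 85.3 CPM in the lowest, 100 CPM in the median and 120 CPM in the highest library of late pregnancy, and at 53.6, 62.5 and 69.1 CPM in lactation. Again no pool of lactation reached the range of late pregnancy. The log2 change was -0.66 ± 0.08 (SE), a 1.59-fold lower level (adjusted p = 2.4e-07, edgeR). Within the feed groups of the dams the change of ERBB2 was -0.79 in HM, -0.59 in MM and -0.62 in LM, and that of ERBB3 was -1.47, -1.13 and -1.32, all called.

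EGFR, the receptor for EGF and transforming growth factor alpha, lies on chromosome 19 (778003 to 851356, 29 exons). It was the only one of the 3 abundant receptors that was not lower in lactation: its level was 14.2, 16.8 and 21.6 CPM (lowest, median, highest) in late pregnancy and 17.4, 22.0 and 31.6 CPM in lactation. The states overlapped, and the upper end of lactation was held by the 2 HM pools at 25.7 and 31.6 CPM. The log2 change was 0.36 ± 0.12 (SE) with an adjusted p of 0.012 in edgeR. Without HM lactation pool 2 the change was 0.25 with an adjusted p of 0.054, so that this call was lost on leaving out a single pool. It was also 0.69 within HM (adjusted p = 0.0058), 0.08 within MM (adjusted p = 0.69) and 0.32 within LM (adjusted p = 0.15).

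ERBB4, which binds neuregulins and betacellulin, spans 1297540 bases on chromosome 2 (212081243 to 213378782, 4 transcripts). It was far lower than the other receptors, with 12 to 48 reads on exons per library in late pregnancy and 4 to 25 in lactation. Its level was 0.887, 1.04 and 2.47 CPM in late pregnancy and 0.761, 2.16 and 2.64 CPM in lactation. Of the 6 pools of lactation 4 were above 2 CPM, whereas in late pregnancy only HM pool 2 was, and LM lactation pool 2 held the lowest value of all. The log2 change was 0.73 ± 0.26 (SE, adjusted p = 0.019 in edgeR), and it was 0.86 within HM (adjusted p = 0.18), 1.15 within MM (adjusted p = 0.011) and 0.04 within LM (adjusted p = 0.96). The call was lost with upper quartile scaling (0.58, adjusted p = 0.055) and in reads across exon junctions (0.60, adjusted p = 0.068).

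BTC, or betacellulin, lies on chromosome 6 (89369124 to 89413684, 6 exons), in a cluster with the genes of the related ligands EPGN, EREG and AREG between 88912430 and 89413684. BTC was measured at 2.21 CPM in the lowest, 3.1 CPM in the median and 3.73 CPM in the highest library of late pregnancy and at 8.18, 9.30 and 10.7 CPM in lactation. Each pool of lactation exceeded each pool of late pregnancy. The log2 change was 1.62 ± 0.12 (SE), a 3.07-fold higher level (adjusted p = 3.4e-10, edgeR), and 95.5% of all genes tested had a lower log2 change. Within the feed groups it was 1.88 in HM, 1.47 in MM and 1.54 in LM, all called.

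HBEGF, the heparin-binding ligand of EGFR and ERBB4, lies on chromosome 5 (48920989 to 48932171, 6 exons). It was close to the limit of detection, with 2 to 23 reads on exons in late pregnancy and 4 to 20 in lactation. Its level was 0.148, 0.585 and 0.874 CPM in late pregnancy and 0.703, 1.48 and 1.74 CPM in lactation. The 4 MM and LM pools of lactation, at 1.47 CPM or more, were well above every pool of late pregnancy, HM lactation pool 1 (0.879 CPM) was just above the highest of them, and HM lactation pool 2 (0.703 CPM) was within their range. The log2 change was 1.23 ± 0.28 (SE, adjusted p = 0.00067 in edgeR), with 0.74 within HM (adjusted p = 0.43), 1.40 within MM (adjusted p = 0.0089) and 1.27 within LM (adjusted p = 0.055).

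NRG1, or neuregulin 1, the ligand of ERBB3 and ERBB4, spans 1125060 bases on chromosome 26 (26185045 to 27310104, 2 transcripts). It had 15 to 40 reads on exons per library in late pregnancy and 5 to 20 in lactation. Its level in exon reads was 1.11, 1.41 and 1.64 CPM in late pregnancy and 1.10, 1.65 and 2.46 CPM in lactation. The states overlapped, with 3 of the 6 pools of lactation above the range of late pregnancy and HM lactation pool 1, on 5 reads, at its lower end. The log2 change was 0.28 ± 0.17 (SE) and was not called (adjusted p = 0.19, edgeR).

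Of the remaining ligands, TGFA had few reads and EREG none. TGFA, transforming growth factor alpha (chromosome 3, 92431312 to 92539412), had 3 to 13 reads on exons in late pregnancy and 1 to 4 in lactation, equal to 0.194 to 0.470 and 0.220 to 0.761 CPM. Tested without the filter on low counts, its log2 change was 0.38 ± 0.34 (SE, adjusted p = 0.45 in edgeR). EREG, or epiregulin (chromosome 6, 88978730 to 88994874), had 0 reads on exons in all 15 libraries and 0 to 2 reads on the whole gene, so that a level below the detection limit given above is allowed in each library.

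The other ligands of the family, AREG, EPGN, NRG2, NRG3 and NRG4, were all below the filter. AREG, or amphiregulin, a ligand of EGFR, had 1 to 4 reads on exons in late pregnancy and 1 to 9 in lactation, with 0.0380 to 0.183 and 0.176 to 1.14 CPM. In the fit without the filter AREG had a log2 change of 2.71 ± 0.41 (SE, adjusted p = 5.2e-06) on these few reads, and NRG4, a ligand of ERBB4, had 0.91 ± 0.36 (adjusted p = 0.037) with 2 to 15 reads and 3 to 8 reads. NRG2 was at -0.25 ± 0.45 in that fit (adjusted p = 0.65). EPGN, or epigen, had no read in any library, and NRG3 had 0 reads on exons beside 10 to 33 reads per library in its introns in late pregnancy and 12 to 20 in lactation.

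Levels of different genes were compared as CPM per kilobase of exon. In late pregnancy ERBB3 (25.5 ± 3.84, SD, n = 9) and ERBB2 (23.3 ± 2.69) were the most abundant members and overlapped with each other, followed without overlap by EGFR (4.42 ± 0.63) and BTC (4.01 ± 0.69), which overlapped in turn. All others had means of 0.560 CPM per kilobase (TGFA) or less, in the order TGFA, NRG1, NRG4, HBEGF, ERBB4, NRG2 and AREG, and each of these neighbours overlapped. In lactation the order was ERBB2 (14.7 ± 1.29, SD, n = 6), BTC (12.4 ± 1.18) and ERBB3 (10.3 ± 1.09), each overlapping with the next, then EGFR (5.71 ± 1.27) apart from both neighbours. From NRG4 (0.910 ± 0.27) downward the order was HBEGF, TGFA, NRG1, ERBB4, AREG and NRG2, again with overlap between all neighbours. BTC thus stood beside EGFR in late pregnancy and beside the 2 most abundant receptors in lactation.

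Shares within a library do not depend on how libraries are scaled against each other. How often shares of other genes lack overlap between the states was not counted, so a lack of overlap below describes the single gene only. Of the summed RPKM of the 4 receptors, ERBB3 held 47.4% ± 2.3 (SD, range 44.9% to 50.7%) in late pregnancy and 33.0% ± 2.7 (29.5% to 35.9%) in lactation, without overlap. EGFR held 8.31% ± 1.1 (5.84% to 9.31%) and 18.4% ± 4.6 (13.7% to 26.0%), also without overlap. For ERBB2 the shares overlapped, with 43.7% ± 3.0 and 47.1% ± 2.7, and ERBB4 held 0.559% ± 0.21 and 1.57% ± 0.58, with overlap. ERBB2 stood to ERBB3 at a ratio of 0.773 to 1.03 before birth, against 1.34 to 1.54 in lactation. The change of the receptors was thus unequal: ERBB3 lost more than ERBB2, and EGFR gained in share.

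**Figure D2:**
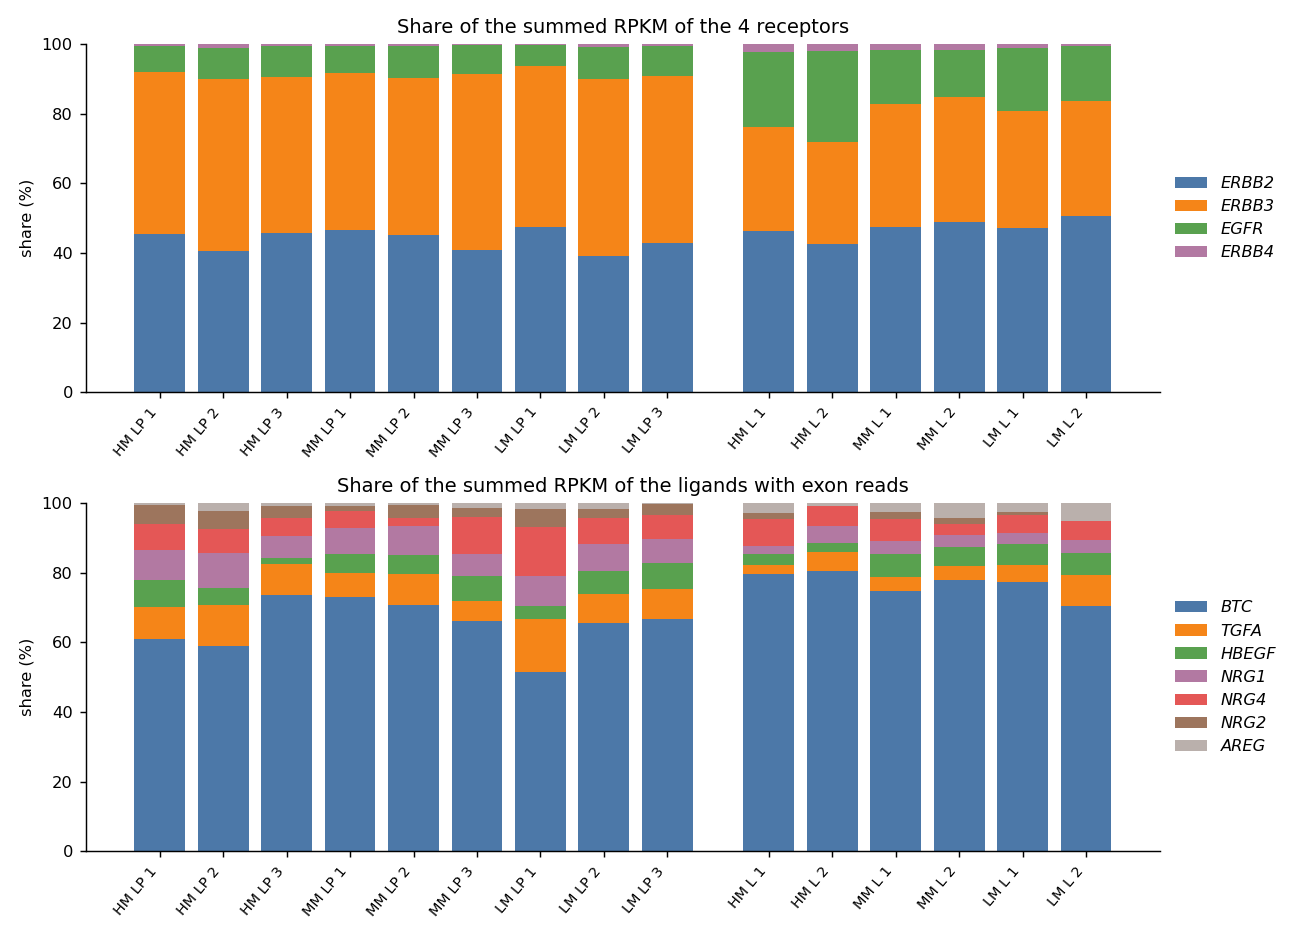
Share of each receptor in the summed RPKM of the 4 receptors (top) and of each ligand in the summed RPKM of the ligands with reads on exons (bottom), in percent, for each pool of late pregnancy (LP) and lactation (L). ERBB3 holds 44.9% to 50.7% of the receptor sum in late pregnancy and 29.5% to 35.9% in lactation, and BTC is the largest part of the ligand sum in all 15 libraries. EGF, which has no row, is not part of the ligand sum.

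The ligand sums below leave out EGF, which has no row, so shares and ratios hold for the other ligands only. Among these ligands BTC held 65.3% ± 7.2 (51.4% to 73.8%) of the summed RPKM in late pregnancy and 76.8% ± 3.8 (70.3% to 80.6%) in lactation, with overlap. The share of NRG1 was 7.79% ± 1.2 (6.26% to 9.88%) and 3.56% ± 0.83 (2.26% to 4.82%), without overlap, although its level in CPM was not called between the states. A share also depends on the other genes of the sum. Mean NRG1 was 0.473 CPM per kilobase in late pregnancy and 0.575 in lactation, while mean BTC was 4.01 and 12.4. The smaller share of NRG1 is thus not a lower level of NRG1. TGFA held 9.26% ± 2.8 and 4.95% ± 2.3, and HBEGF held 5.60% ± 2.0 and 5.06% ± 1.7. The summed RPKM of the receptors was 7.37 to 10.7 times that of the ligands in late pregnancy and 1.73 to 2.14 times in lactation. EGFR stood to BTC at a ratio of 0.809 to 1.59 in late pregnancy and of 0.346 to 0.557 in lactation. Neither ratio overlapped between the states. How often shares or ratios of other genes lack overlap was not counted, so this describes the named genes only. The ratios also join genes that already differed between the states in opposite directions.

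Because the milk protein genes fill most of a lactation library, the direction of 5 members depends on the scaling. With library size alone as the scaling, the median log2 change of all genes was -1.94 in place of -0.03, 12705 genes were called lower and 352 higher (4703 and 4419 with TMM), and EGFR (-1.55), ERBB4 (-1.17), HBEGF (-0.66), BTC (-0.29) and NRG1 (-1.62) all turned negative. A change of scaling shifts all genes by nearly the same amount, so values relative to the median of all genes stay alike by construction. BTC was 1.65 above that median with TMM and with library size alone, HBEGF 1.26 and 1.27, ERBB4 0.76 and 0.76, EGFR 0.39 and 0.38, and NRG1 0.31 and 0.32. ERBB2 was at -0.63 and -0.63 and ERBB3 at -1.27 and -1.27 by the same measure. With library size counted without the milk protein genes, the median was -0.24, with 6481 genes lower and 3032 higher, and EGFR (0.15, adjusted p = 0.30) and ERBB4 (0.52, adjusted p = 0.087) were no longer called. The directions given above are therefore relative to the bulk of the other genes.

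A lane is named for each library in the headers of the table, although by the labels the data of 2 lanes were combined for each. Within the libraries of lane 7 the log2 change was -1.31 for ERBB3, -0.73 for ERBB2, 1.69 for BTC, 1.06 for HBEGF, 0.53 for EGFR, 0.88 for ERBB4 and 0.28 for NRG1, and within lane 8 it was -1.27, -0.60, 1.54, 1.38, 0.18, 0.51 and 0.26. EGFR was not called within lane 8 (adjusted p = 0.30), and ERBB4 was not called within either lane (adjusted p = 0.065 and 0.23). Without HM lactation pool 1, which stood apart in its exon share, the changes were -1.26 for ERBB3, -0.65 for ERBB2, 1.60 for BTC, 1.30 for HBEGF, 0.32 for EGFR and 0.66 for ERBB4, all called, and 0.35 for NRG1, not called.

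**Figure D3:**
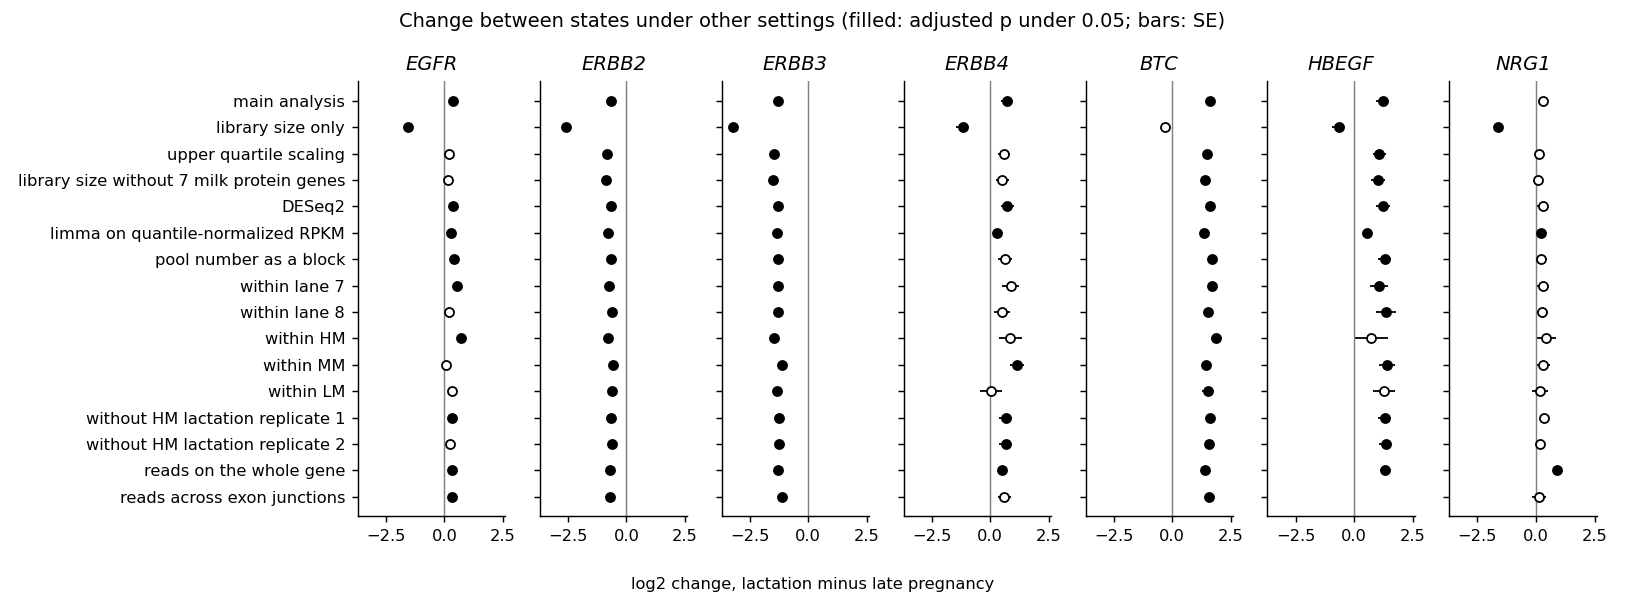
Log2 change from late pregnancy to lactation of the 7 members tested, in the main analysis and under other settings; filled points have an adjusted p under 0.05, open points do not, and bars are SE where larger than the point. ERBB2 and ERBB3 are below 0 and called in every row, and EGFR, ERBB4, BTC, HBEGF and NRG1 fall below 0 where library size alone is the scaling.

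Reads in introns give a measure that the exon counts above do not use. They can come from unspliced RNA, from exons missing in the annotation or from antisense or overlapping genes. These origins cannot be told apart here. Levels are given here as CPM of the TMM-scaled intron reads. Of the 10344 genes tested 58% were called, 29% as lower and 29% as higher. How many of them showed no overlap between the states in intron reads was not counted. A lack of overlap below therefore describes the single gene only. Of the 6 members that passed the filter on intron reads, ERBB2 and ERBB3 were called lower, BTC, ERBB4 and NRG1 higher, and EGFR was not called.

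ERBB2 had 45.0, 61.8 and 85.1 CPM in introns (lowest, median, highest) in late pregnancy and 19.9, 25.5 and 38.2 CPM in lactation, and ERBB3 had 44.0, 71.3 and 85.5 CPM and 30.4, 33.1 and 48.5 CPM. The states did not overlap for ERBB2 and overlapped in a single pool of lactation for ERBB3. The log2 changes were -1.19 ± 0.16 (SE, adjusted p = 9.7e-07) for ERBB2 and -0.96 ± 0.15 (adjusted p = 4.9e-06) for ERBB3. BTC introns were at 22.2, 35.9 and 43.7 CPM and at 63.8, 76.9 and 87.8 CPM, without overlap, with a log2 change of 1.15 ± 0.12 (adjusted p = 1.5e-08).

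NRG1 differed between the measures. Of all its reads, 66.8% in late pregnancy and 78.8% in lactation lay in introns, at 17.9, 23.1 and 31.3 CPM and at 41.6, 49.4 and 61.3 CPM. Every pool of lactation was above every pool of late pregnancy in intron reads, and the log2 change was 1.08 ± 0.13 (SE, adjusted p = 2.2e-07), beside 0.28 in exon reads. In the reads on the whole gene, exons and introns together, NRG1 changed by 0.91 (adjusted p = 2.0e-07). ERBB4 had 88.6% and 86.2% of its reads in introns and a log2 intron change of 0.38 ± 0.10 (adjusted p = 0.0027), which turned to -0.25 with library size alone, and EGFR had an intron change of 0.05 ± 0.16 (adjusted p = 0.79). Of the other neuregulins, NRG3 (1.10 ± 0.24, adjusted p = 0.00034) and NRG4 (2.04 ± 0.24, adjusted p = 9.9e-08) were called higher in introns and NRG2 (0.51 ± 0.25, adjusted p = 0.087) was not. The NRG3 call was lost with library size alone (0.48, adjusted p = 0.079). NRG2 was called with the TMM factors of the exon reads (0.60, adjusted p = 0.043), without MM late pregnancy pool 2 (0.61, adjusted p = 0.039) and without LM lactation pool 1 (0.65, adjusted p = 0.034). Without HM lactation pool 1 the intron changes were -1.13 for ERBB2, -0.94 for ERBB3, 1.11 for BTC, 1.02 for NRG1 and 0.33 for ERBB4, all called.

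**Figure D4:**
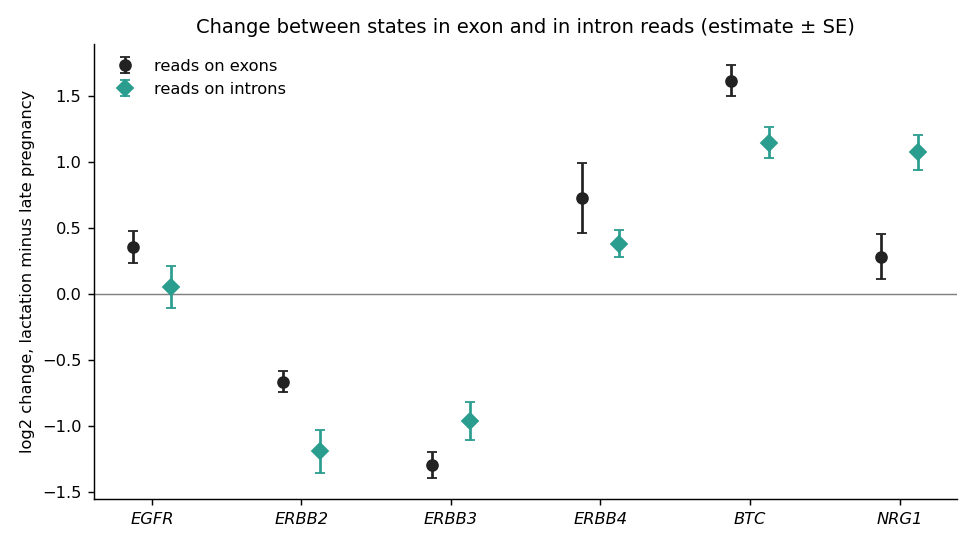
Log2 change from late pregnancy to lactation (estimate ± SE) in reads on exons (black circles) and in reads on introns (green diamonds) for the 6 members tested on both. NRG1 changes by 0.28 in exons and 1.08 in introns, and ERBB2 by -0.66 and -1.19.

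The ratio of intron to exon reads was tested in limma, centred on the median of each library, where 34.5% of 9801 genes were called, 17.7% as lower in lactation and 16.8% as higher. The log2 ratio rose by 0.75 ± 0.19 (SE) for NRG1 (adjusted p = 0.0066) and by 0.37 ± 0.12 for ERBB3 (adjusted p = 0.025). It changed by -0.53 ± 0.12 for ERBB2 (adjusted p = 0.0037) and by -0.45 ± 0.11 for BTC (adjusted p = 0.0036). EGFR (-0.28 ± 0.14, adjusted p = 0.13) and ERBB4 (-0.34 ± 0.22, adjusted p = 0.24) were not called. With a pseudocount of 5 in place of 1 the ERBB4 change was -0.60 and called (adjusted p = 0.017) and that of NRG1 was 0.43 (adjusted p = 0.034), and without MM lactation pool 1 EGFR was called (-0.37, adjusted p = 0.045). The ERBB3 call was lost without HM lactation pool 2 (adjusted p = 0.053) or without LM lactation pool 1 (adjusted p = 0.065). Without HM lactation pool 1 the ratio changed by 0.60 for NRG1, 0.36 for ERBB3, -0.47 for ERBB2 and -0.47 for BTC, all called. Whether the counting used strand is not given in the sources used here, so reads of antisense or overlapping genes within these introns cannot be told apart from those of the members.

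The feed of the ewes' dams was compared within each state. In the pools of late pregnancy 0 of 13747 genes (0%) were called over the 3 feeds in edgeR, with 571 at an unadjusted p under 0.05 and 20 called in DESeq2, and the lowest unadjusted p of a member was 0.41 (ERBB4). For HM against LM the count was also 0 (0%), with 471 at an unadjusted p under 0.05 and 7 called in DESeq2. The estimated log2 difference, HM minus LM, was -0.09 for ERBB2 (from -0.34 to 0.15 at 2 SE on either side) and -0.15 for ERBB3 (-0.45 to 0.15), while for HBEGF it was -0.43 (-1.37 to 0.52). Differences of the abundant receptors beyond those bounds are thus outside the interval, whereas for HBEGF a 2-fold difference is within it.

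In lactation 1 of 11777 genes (0.00849%) was called over the 3 feeds, and it was no member. EGFR had the lowest unadjusted p of the members, 0.0053, with 25.7 and 31.6 CPM in the HM pools, 23.1 and 20.9 CPM in the LM pools and 19.5 and 17.4 CPM in the MM pools. The adjusted p of EGFR was 0.47, and it was 0.030 in the fit without a filter on low counts, in which 391 genes were called. ERBB3 had 47.7 and 47.6 CPM in the HM pools against 57.8 to 60.3 CPM in the other 4 pools (unadjusted p = 0.025, adjusted p = 0.59). No gene (0%) was called for a difference between feeds in the change from late pregnancy to lactation in edgeR (876 at an unadjusted p under 0.05, 19 called in DESeq2), and the lowest adjusted p of a member was 0.77 (EGFR).

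Deviations from the state means were compared between the members over the 15 libraries, as a description of log2(CPM + 1) values that share depth and scaling. ERBB2 and ERBB3 deviated together (Pearson r = 0.72), as did ERBB3 and HBEGF (0.61), and BTC deviated against ERBB2 (-0.68) and ERBB3 (-0.53). Candidates were the 8234 tested genes whose mean reached 5 CPM, without the members and without genes that carry only a LOC symbol. The values below are the highest among these candidates. Those with the deviations most like ERBB3 were OPTN (0.85), CAB39L (0.83) and IFT140 (0.82), and those most like ERBB2 were ZO3 (0.88), FLOT1 (0.86) and C1QC (0.86), the last a macrophage marker. Those most like EGFR were KIAA1244 (0.94), OSBPL8 (0.94) and ZNF664 (0.93), and those most like BTC were WNK1 (0.83), METTL16 (0.82) and MAST (0.82). For ERBB4 they were DNAJC13 (0.90), ALS2CR8 (0.87) and ARID4A (0.87), for HBEGF ERAP1 (0.87), GM2A (0.82) and INTS3 (0.82), and for NRG1 GNL3L (0.86), TMTC2 (0.84) and MARK4 (0.83). Over the pools of late pregnancy alone, the values for NRG1 were 0.74 with GNL3L, 0.42 with TMTC2 and 0.47 with MARK4.

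The wider pathway was described by lists of genes in the order of signalling. Together the lists held 89 tested genes, 31 called lower and 34 higher in lactation with a median log2 change of 0.02, beside 35.2% lower, 33.1% higher and a median of -0.03 over all genes. Of the 9 proteases and helpers that release the ligands, 6 were lower and 2 higher (median -0.32). ADAM10, the main protease for betacellulin and EGF, fell from 191 to 88.0 CPM on average (log2 -1.11 ± 0.07, SE, adjusted p = 6.0e-11), and BACE1, which cleaves NRG1, changed by -0.83 (adjusted p = 1.4e-06). ADAM12 was also lower (-0.96, adjusted p = 0.0083). ADAM17, which releases TGFA, AREG and HBEGF, rose by 0.21 (adjusted p = 0.0031), as did RHBDF2, which helps ADAM17 to mature, by 0.36 (adjusted p = 0.0035). ADAM17 and RHBDF2 turned negative with library size alone, and ADAM17 was at -0.0029 with library size counted without the milk protein genes.

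Of 10 tested partners and chaperones of the receptors, 5 were lower and 3 higher (median -0.14). MUC1, a transmembrane mucin that associates with these receptors and is also part of the milk fat globule membrane, rose from 22.9 to 236 CPM (log2 3.37 ± 0.08, SE, adjusted p = 5.7e-17), and HSP90AA1, a chaperone on which ERBB2 depends, rose by 0.53 (adjusted p = 9.2e-07) but turned negative with library size alone. HSP90AB1, the other cytosolic HSP90 gene of the list, fell from 670 to 453 CPM (-0.57, adjusted p = 2.0e-08); it lies outside the 3 largest falls and is named because its direction is opposite. CD44, a receptor for hyaluronan that presents HBEGF, fell from 41.0 to 13.1 CPM (-1.64, adjusted p = 3.6e-09). PTPN12 (-0.83, adjusted p = 3.7e-09) and NRP1 (-0.65, adjusted p = 8.3e-08) were also lower. CDC37, a partner of HSP90, was higher by 0.12 (adjusted p = 0.040), but below 0 with upper quartile scaling, with either other library size and in limma on the quantile-normalized RPKM, and its call was lost on leaving out any of 10 libraries (adjusted p up to 0.094).

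Of 22 tested adaptors and subunits of the lipid kinase, 9 were lower and 6 higher (median 0.00). GRB7, an adaptor that binds ERBB2 and is also listed below as a neighbour of its gene, fell from 16.3 to 2.81 CPM (log2 -2.48 ± 0.15, SE, adjusted p = 1.2e-11). NCK2 (-1.15, adjusted p = 4.5e-09) and SHC2 (-1.53, adjusted p = 0.0071, from 0.568 to 0.187 CPM, the latter below the limit of detection in lactation, and not called within lane 8 or within any feed) were also lower, whereas GAB2 (1.06, adjusted p = 6.0e-08), CRKL (0.66, adjusted p = 1.5e-05) and SOS1, the exchange factor for RAS (0.53, adjusted p = 6.8e-05), were higher. GAB2, CRKL and SOS1 turned negative with library size alone.

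Of 12 tested genes of the cascade from RAS to ERK, 3 were lower and 4 higher (median 0.16, which was 0.19 above the median of all genes, and -0.05 with library size counted without the milk protein genes). RPS6KA3, a kinase downstream of ERK, rose from 19.2 to 84.1 CPM (log2 2.13 ± 0.08, SE, adjusted p = 5.5e-15) and was positive under each scaling tried. MAP2K1, the kinase of ERK, was higher by 1.09 (adjusted p = 2.6e-11) and MAP2K2, its close relative, by 0.49 (adjusted p = 1.0e-05), and both turned negative with library size alone. MAPK3, which encodes ERK1, changed by -0.60 (adjusted p = 1.4e-07), RASA1 by -0.45 (adjusted p = 2.1e-06) and NRAS by -0.18 (adjusted p = 0.027). The NRAS call was lost without LM lactation pool 1 (-0.16, adjusted p = 0.065) or pool 2 (-0.16, adjusted p = 0.068).

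Of 24 tested genes that limit the receptors or sort them for degradation, 5 were lower and 13 higher (median 0.25). LRIG1, a membrane protein that lowers the amount of these receptors, rose from 43.8 to 105 CPM (log2 1.26 ± 0.05, SE, adjusted p = 3.3e-14), and RNF41, a ubiquitin ligase for ERBB3, rose from 24.0 to 39.1 CPM (0.70, adjusted p = 6.7e-05). PTPN1, a phosphatase of receptor kinases, was higher by 0.69 (adjusted p = 3.5e-06). LRIG3 (-0.93, adjusted p = 2.3e-06), CBLC (-0.89, adjusted p = 0.00037) and SH3KBP1 (-0.57, adjusted p = 0.0017) were lower. With library size counted without the milk protein genes, 8 of this list were lower and 5 higher. Its median stood 0.28 above that of all genes under both scalings, which the shift common to all genes gives by construction. LRIG1, RNF41 and PTPN1 turned negative with library size alone.

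Of 12 tested response genes of ERK signalling, 3 were lower and 6 higher (median 0.70, which was 0.73 above the median of all genes). EGR1, an immediate early transcription factor, rose from 4.92 to 65.9 CPM (log2 3.75 ± 0.16, SE, adjusted p = 4.6e-14), and the phosphatases DUSP4, from 8.92 to 74.2 CPM (3.05, adjusted p = 7.0e-15), and DUSP5, from 0.378 to 3.1 CPM (2.97, adjusted p = 1.2e-08), rose as well. The changes of EGR1, DUSP4 and DUSP5 were positive under each scaling tried. PHLDA1 (-2.27, adjusted p = 1.2e-09), MYC (from 52.5 to 14.9 CPM, -1.80, adjusted p = 2.2e-13) and CCND1, which encodes cyclin D1 (-0.96, adjusted p = 2.8e-05), fell. Each of these 6 genes is also controlled by other pathways.

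**Figure D5:**
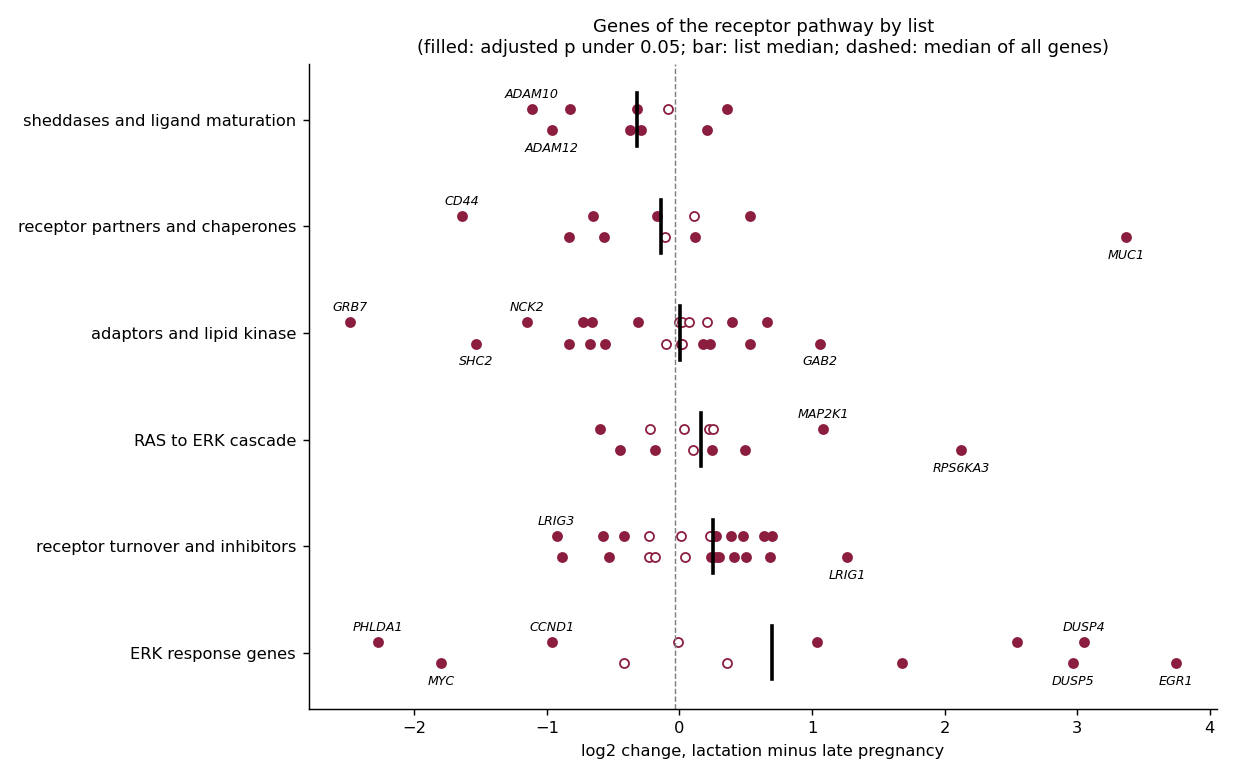
Log2 change from late pregnancy to lactation of each tested gene in 6 lists of the receptor pathway. Filled points have an adjusted p under 0.05, open points do not, black bars are list medians, the dashed line is the median of all genes (-0.03), and the named genes with the largest changes are labelled; the response genes spread from -2.27 (PHLDA1) to 3.75 (EGR1).

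Genes taken as neighbours of ERBB2 and ERBB3 were listed to see whether they moved with them. They were matched by symbol, and their positions in the sheep genome were not tabulated. Of 12 tested neighbours of ERBB2, 4 were lower and 6 higher (median 0.18): besides GRB7, which is named above, IKZF3 (-1.96, adjusted p = 7.9e-05) and PPP1R1B (-0.59, adjusted p = 0.0011) were lower, and CDK12 (0.79, adjusted p = 4.5e-08), MIEN1 (0.61, adjusted p = 3.6e-07) and ORMDL3 (0.57, adjusted p = 4.9e-08) were higher. IKZF3 went from 0.914 to 0.194 CPM, the latter below the limit of detection in lactation. PPP1R1B was not called within MM (adjusted p = 0.059) or within LM (adjusted p = 0.20). Of 12 tested neighbours of ERBB3, 4 were lower and 5 higher (median 0.16). RPS26, which encodes a ribosomal protein, changed by -0.92 (adjusted p = 1.6e-10), CDK2 by -0.40 (adjusted p = 0.0016) and PA2G4, whose product binds ERBB3, by -0.33 (adjusted p = 5.2e-06), while SUOX was higher by 0.94 (adjusted p = 8.0e-11), ESYT1 by 0.92 (adjusted p = 3.6e-07) and RNF41 as given above. CDK12, MIEN1, ORMDL3, SUOX, ESYT1 and RNF41 all turned negative with library size alone.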

How the data were processed

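RNA of pooled biopsies was sequenced as paired reads of 100 bases, each library on 2 lanes combined by the authors. Reads were mapped to the sheep genome and counted in CLC Genomics Workbench by the authors; the labels name Oar_v3.1, the study's methods name a later version, and the software version is not given in the sources used here. The deposited table holds counts of reads per gene, made by the authors without normalization, for exons, whole genes, exon junctions and uniquely placed reads. It also holds RPKM values made by the authors from the exon reads and a quantile-normalized RPKM made by them from these. RPKM recomputed from the counts differed by a relative 3.5e-07 at most. The authors' columns of fold changes and p-values were not used.

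Counts on exons (whole-gene reads for the 5583 of 24691 features without an annotated transcript) were tested in edgeR 4.0.16 (R 4.3.3) by the quasi-likelihood F-test with TMM scaling, filterByExpr and Benjamini-Hochberg adjustment over all genes tested; a change is lactation minus late pregnancy, and its SE was derived from the F statistic. The 3 feeds were tested within each state, as was their interaction with state. Intron reads are whole-gene minus exon reads; the ratio was tested in limma 3.58.1 with a pseudocount of 1. Shares used the deposited RPKM. DESeq2 1.42.0, limma on log2(quantile-normalized RPKM + 1), other scalings, filters, covariates and each library left out were alternatives. The deviations of the same-numbered pools of the states correlated at -0.01 to 0.08, which did not pair them.

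The text names all members and other ligands, up to 3 called genes per direction with the largest change in each pathway list, and the 3 genes most like each member. Members and lists were chosen with earlier results of these data known. Of a pathway list, 2 genes are not reported here, and the counts of that list leave them out. Sequences are not printed here. The limit of 3 reads covers counting error only.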

Additional observations from a re-analysis of the deposited data

Results flagged for a closer look

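In 44 groups of per-library values of the members, 3 had a sample whose gap to its nearest neighbour was large for the range of its group by Dixon's criterion, which chance alone gives in about 5% of groups. The highest ERBB4 level of late pregnancy, 2.47 CPM in HM pool 2, stood above the next library at 1.62 CPM, and without that pool the log2 change of ERBB4 was 0.87. The highest log2 ratio of intron to exon reads of NRG1 in late pregnancy was 3.54 in HM pool 3, with the next library at 3.00. The lowest share of EGFR in the receptor sum in late pregnancy was 5.84% in LM pool 1, with the next library at 7.58%.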

How the results depend on the processing

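Between the states 9122 genes were called over all libraries and 5955 within HM alone, on 5 libraries. Of the members, 6 were lower and 0 higher with library size alone (2 lower and 4 higher with TMM). Of all 13345 genes, 12705 were lower and 352 higher with library size alone (4703 and 4419 with TMM). The number higher was 2 with upper quartile scaling, with library size without milk protein genes, with at least 10 reads in every library, within lane 8, within HM and in reads across exon junctions, and 1 within LM. Leaving out each library gave 3 to 4 higher. ERBB4, HBEGF and NRG1 did not enter the fit with at least 10 reads, nor HBEGF that of junction reads. Of all genes, 3420 of 13345 were higher with upper quartile scaling, 3520 of 10079 with at least 10 reads and 3364 of 10748 in junction reads. The cause was not tested except where fewer genes or libraries entered.

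With library size alone the sign turned for EGFR (-1.55), ERBB4 (-1.17), HBEGF (-0.66), BTC (-0.29), NRG1 (-1.62), ADAM17 (-1.70), RHBDF2 (-1.55), GAB2 (-0.85), SOS1 (-1.37), CRKL (-1.26), MAP2K2 (-1.42), MAP2K1 (-0.82), RNF41 (-1.20), LRIG1 (-0.64), PTPN1 (-1.22), HSP90AA1 (-1.38), CDC37 (-1.79), CDK12 (-1.11), MIEN1 (-1.29), ORMDL3 (-1.34), SUOX (-0.96) and ESYT1 (-0.99), and in intron reads for EGFR (-0.56), ERBB4 (-0.25) and NRG2 (-0.093). Without the milk protein genes in the library size, ADAM17 was at -0.0029 and CDC37 at -0.092; CDC37 was at -0.032 with upper quartile scaling and at -0.14 in limma on quantile-normalized RPKM. ERBB2 and ERBB3 were called as lower in all 33 alternatives, and the others were called as higher in 32 of 33 (BTC), 28 of 31 (HBEGF), 26 of 33 (EGFR), 23 of 32 (ERBB4) and 2 of 32 (NRG1); HBEGF, EGFR, ERBB4 and NRG1 were called as lower with library size alone.

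For feed in late pregnancy DESeq2 called 20 genes, and 7 for HM against LM, where the fit without a filter called 1; leaving out a library gave 0 to 1 for both. In lactation DESeq2 called 36, the fit without a filter 391 (among them 1 member, EGFR), and leaving out a library gave 0 to 20. For the interaction these were 19 (DESeq2) and 2 (no filter). The small HM minus LM differences changed sign for EGFR with library size alone (-0.10) and without a filter (-0.0027), and, on leaving out a library, ranged from -0.13 to 0.084 for EGFR, -0.21 to 0.038 for ERBB2, -0.31 to 0.45 for ERBB4, -0.25 to 0.11 for BTC and -0.16 to 0.072 for NRG1. On leaving out a library the intron change of EGFR ranged from -0.020 to 0.19, and 1 to 2 members had a higher ratio of intron to exon reads.

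Whether same-numbered pools of the 2 states share ewes is not known. With the replicate block 8464 genes were called between the states, 0 for feed in late pregnancy and 2 in lactation, and ERBB4 was at 0.62 (adjusted p = 0.077, edgeR). Depth limits ERBB4, HBEGF, NRG1, TGFA, AREG, NRG2 and NRG4, which had at most 48 reads on exons in any library.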
